A study of Homo sapiens with 14 samples.

Results

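The genes described here are those of 4 NF-κB subunits (NFKB1, NFKB2, RELA, RELB), the IκB proteins encoded by NFKBIA, NFKBIE and BCL3, the feedback genes TNFAIP3 and BIRC3, and the adhesion gene ICAM1. They were taken by symbol from the annotation of the array, as a list chosen with earlier results of these data known. Of the 10 genes, 9 had a probe set of their own, 1 each, and all 9 were among the 11050 of 18417 genes whose mean log2 level over the arrays reached 5.90. BIRC3, which encodes an inhibitor of apoptosis, has no entry as the only gene of a probe set. Its level was not analysed, and it enters only the sequence search below, where it has a match.

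The data are 14 Human Gene 1.0 ST arrays of a human gastric carcinoma line, which the labels name MKN28 and the paper MKN74. Parental cells were measured untreated on day 2, in 1% oxygen (hypoxia) on days 1 and 2, and with 10 ng/ml TGF-β on days 1 and 2. The Snai1ER line, which carries a transgene for the EMT factor Snai1 fused to an estrogen receptor domain, was measured without 4-hydroxytamoxifen (4-OHT) on day 4 and with 20 ng/ml 4-OHT on days 2 and 4. Every treated condition, 6 in all, has a second array from cells with ANGPTL4 knocked down, by siRNA in the parental line and by shRNA in the Snai1ER line. All cells grew in RPMI with 10% FBS at low density. No array of untreated cells carried the knockdown, no 4-OHT was given to the parental line, and each condition had 1 array.

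NF-κB dimers are held in the cytoplasm by IκB proteins. Signals from cytokine receptors and stress activate the IκB kinases, the IκB is degraded and the dimers enter the nucleus. There they switch on inflammatory, survival and adhesion genes, and also the genes of their own inhibitors, which closes a negative feedback loop. NFKB1 and NFKB2 encode the precursors p105 and p100 of the p50 and p52 subunits, and RELA and RELB encode subunits with a transactivation domain. NFKBIA (IκBα) and NFKBIE (IκBε) are inhibitors, and BCL3 is a nuclear IκB that binds p50 and p52. TNFAIP3 (A20) is a ubiquitin-editing enzyme that shuts down signalling to the IκB kinases, and ICAM1 is a ligand of leukocyte integrins.

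The binding sites that NF-κB dimers read are short and nearly palindromic, so the sequence before each gene's start was searched for GGANNTTCC and GGGNNTTCC, on both strands, in the 250 bases upstream of the RefSeq starts (GRCh38.p14). The spellings overlap in part, and a palindromic site matches on both strands. A match was present in 7 of the 8 listed genes with a window, against 11.2% of 27305 genes, and RELA was the gene without one. RELB and NFKBIE had no window in the table used. A match is a string of letters, and no binding was measured.

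The upstream sequences of ICAM1 and NFKBIA are shown whole as examples. ICAM1 was lower with knockdown on both days of hypoxia, and NFKBIA in 5 of the 6 treated conditions as deposited. Neither gene passed the adjusted test of knockdown over all 6, and a link between the matches and knockdown was not tested. Matches are in capitals, 5′ to 3′ on the strand of the gene. ICAM1 lies on the plus strand (chr19:10270870-10271119) and has 1 match, and NFKBIA on the minus strand (chr14:35404750-35404999) has 2.
ICAM1: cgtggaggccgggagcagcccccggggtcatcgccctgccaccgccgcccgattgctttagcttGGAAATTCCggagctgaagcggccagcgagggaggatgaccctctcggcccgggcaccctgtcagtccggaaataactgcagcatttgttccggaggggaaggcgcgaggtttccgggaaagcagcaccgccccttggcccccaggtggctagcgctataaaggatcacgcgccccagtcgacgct
NFKBIA: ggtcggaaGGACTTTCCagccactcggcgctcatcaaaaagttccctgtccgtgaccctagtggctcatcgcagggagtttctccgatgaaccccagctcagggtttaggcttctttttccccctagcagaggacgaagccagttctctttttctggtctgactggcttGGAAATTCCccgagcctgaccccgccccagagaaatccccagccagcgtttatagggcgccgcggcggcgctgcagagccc

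For TNFAIP3, NFKB2, NFKB1 and BCL3, whose levels are compared in each model, the match is shown with its flanks. All these genes lie on the plus strand, and the sequences are written on it. The TNFAIP3 and BCL3 matches are on the minus strand, so the reverse complement of their capitals has the spelling searched for. TNFAIP3 has 2 neighbouring matches, at chr6:137867182-137867210 and chr6:137867194-137867222, whose flanks overlap. NFKB2 is shown at chr10:102394461-102394489 and chr10:102394491-102394519, NFKB1 at chr4:102501301-102501329 and BCL3 at chr19:44748593-44748621. NFKB2 has further matches, also before another of its starts, that are not shown.
TNFAIP3, first: acgtgactttGGAAAGTCCcgtggaaatc
TNFAIP3, second: aaagtcccgtGGAAATCCCcgggcctaca
NFKB2, first: gaaacgtcatGGGAATTCCcccctccggg
NFKB2, second: ggccgagaagGGGCTTTCCcggccctgag
NFKB1: gacgtcagtgGGAATTTCCagccaggaag
BCL3: ggcgggtccaGGAAACCCCtggggcgtac

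Levels are log2 values as deposited unless quantile normalization is named. The 2 TGF-β arrays without knockdown had lower median values (5.23 and 5.19) than the other 12. Those reached 6.16 and stood at 6.02 on the untreated parental array. Results that use the 2 TGF-β arrays are therefore given on both scales, for single genes in the tests over all pairs only in part. SNAI1 lay between 8.80 and 9.85 in Snai1ER cells and between 4.76 and 6.19 in parental cells, as their labels say. ANGPTL4 read 4.16 to 5.66, below the level needed for testing, and does not check the knockdown labels. At these low levels it was lower with knockdown only on 4-OHT day 2 (5.43 without, 5.35 with) and higher in every other pair. Its highest level, 5.66, was on the hypoxia day 1 array with knockdown. The hypoxia day 1 array with knockdown was the least like the rest (SD 0.72 of its gene-wise deviations) and gave the lowest level of NFKB1, RELB and ICAM1. Of 7 epithelial genes, EPCAM (11.38 to 12.01), CDH1 (10.26 to 11.33) and KRT18 (10.59 to 11.79) were high on every array. KRT8 (9.48 to 12.22), KRT19 (9.23 to 11.83), CLDN7 (8.16 to 9.55) and CLDN4 (7.12 to 8.86) reached lower levels. KRT19 and CLDN4 were at least 1.5-fold lower on both days of TGF-β on both scales, and CLDN7 as deposited only. PTPRC of leukocytes (3.04 to 3.56), PECAM1 of endothelium (2.88 to 3.95) and DCN of fibroblasts (3.02 to 3.58) were low. The other 3 of 6 markers of other cell types were not as low, CD68 at 6.39 to 8.18, COL1A1 at 6.01 to 7.24 and COL1A2 at 4.88 to 6.33, and their source was not tested. In RNA from whole cultures, fewer cells that express a gene and less RNA per cell cannot be told apart.

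**Figure D1:**
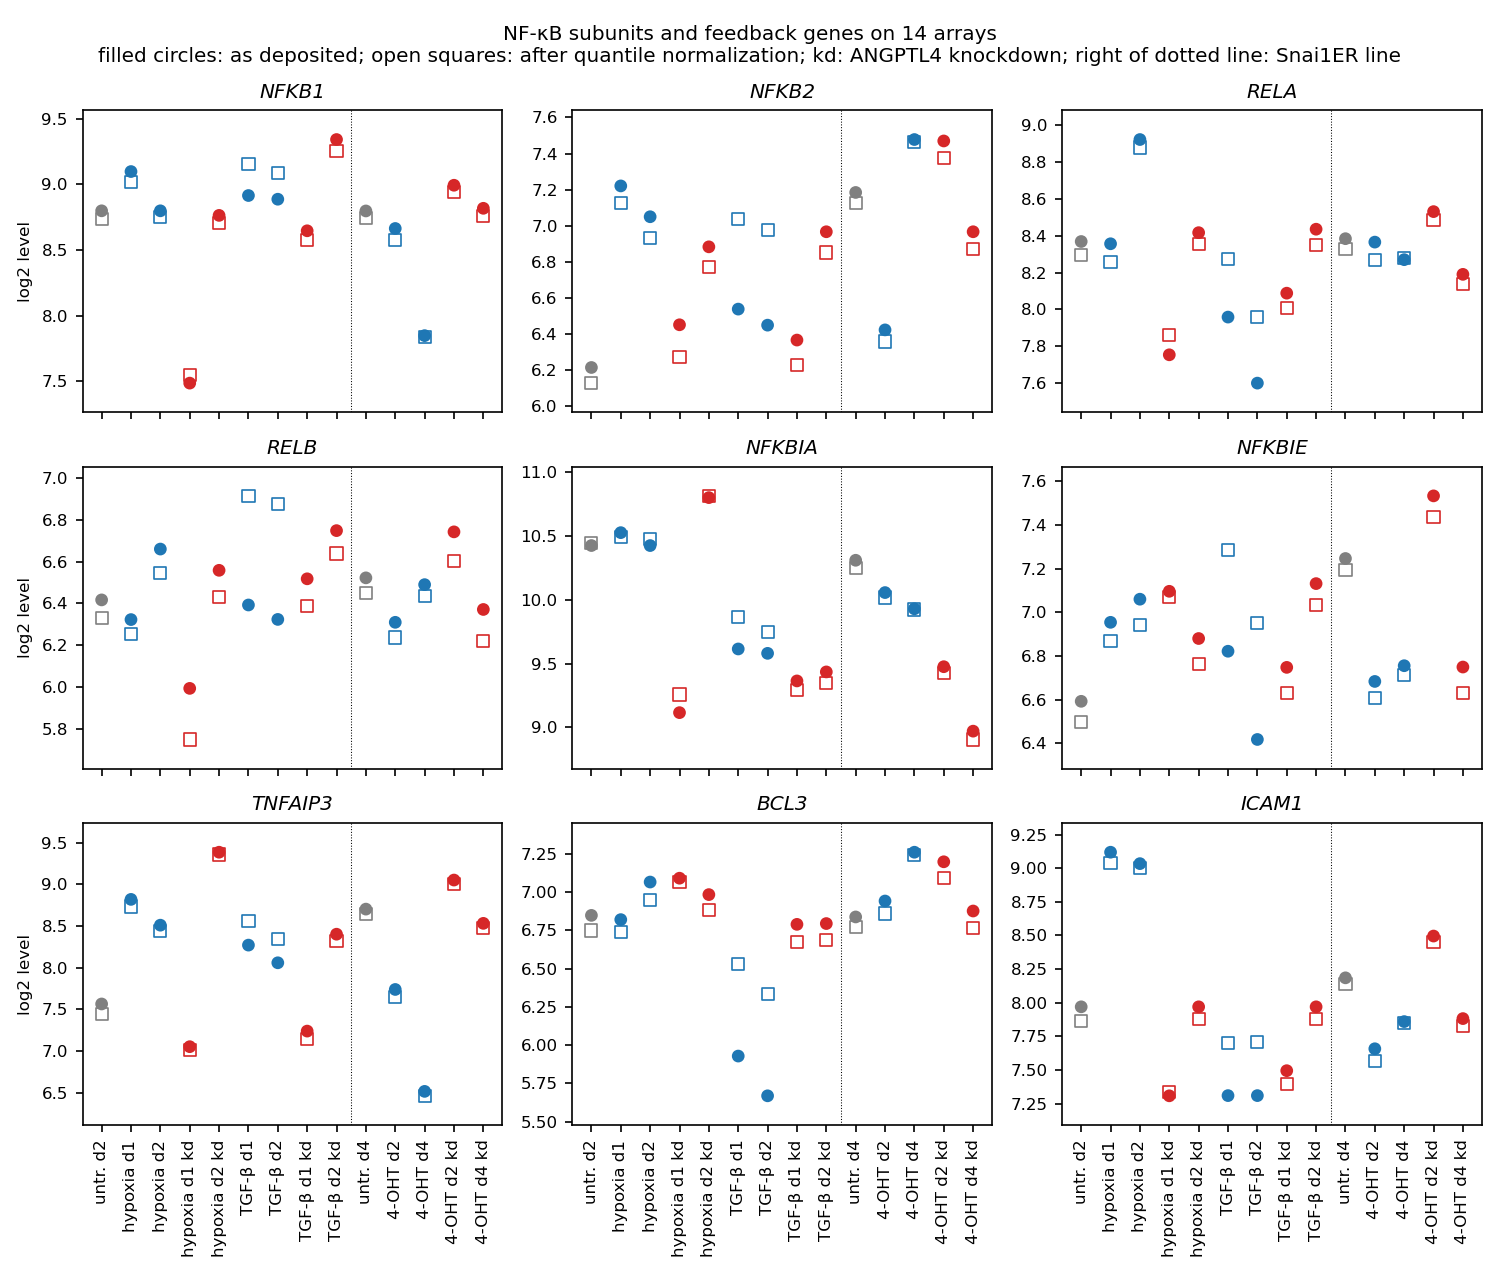
Log2 level of the 9 measured genes (vertical axes, each with its own range) on the 14 arrays, as deposited (filled circles) and after quantile normalization (open squares), for untreated (grey), treated (blue) and treated cells with ANGPTL4 knockdown (red). TNFAIP3 spanned the widest range, from 6.52 on the 4-OHT day 4 array to 9.38 on the hypoxia day 2 array with knockdown.

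With 1 array per condition there is no spread between replicates, so neighbouring levels of a gene could not be told apart by a test. TNFAIP3 varied most over the arrays, by 2.86 from lowest to highest on the log2 scale. NFKB1 varied by 1.86, NFKBIA by 1.83, ICAM1 by 1.81 and BCL3 by 1.59. RELA (1.32), NFKB2 (1.26) and NFKBIE (1.11) varied less, and RELB least, by 0.76. The deposited table repeats values, and in 29.6% of probe sets at least 2 arrays carry 1 value to every digit. Among these genes, ICAM1 read 7.97 on 3 arrays, those of untreated parental cells and of hypoxia and TGF-β on day 2 with knockdown, and 7.31 on both TGF-β arrays without it. NFKB1 read 8.80 on the untreated parental and the hypoxia day 2 array. NFKB2 read 6.97 on the day 2 TGF-β array and the day 4 4-OHT array, both with knockdown.

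Hypoxia was compared with untreated parental cells to ask which of these genes moved in the first EMT model. TNFAIP3, ICAM1 and NFKB2 were higher on both days, and the subunits NFKB1, RELA and RELB and the inhibitors NFKBIA, NFKBIE and BCL3 did not reach the rule. That rule asks for at least a 1.5-fold difference, 0.585 on the log2 scale, in the same direction on both days, and it is a rule of size with no test.
TNFAIP3 read 7.57 in untreated cells, 8.82 on day 1 of hypoxia and 8.51 on day 2. ICAM1 read 7.97 in untreated cells, 9.12 on day 1 and 9.03 on day 2. Both hypoxia arrays lay above the untreated array for these feedback and adhesion genes, and for ICAM1 they were the highest of all 14. The differences were 2.38-fold and 1.92-fold for TNFAIP3 and 2.22-fold and 2.09-fold for ICAM1. NFKB2 read 6.22 untreated, 7.22 on day 1 and 7.05 on day 2, which is 2.01-fold and 1.78-fold higher. The untreated parental level of NFKB2 was the lowest of its 14 arrays, and it enters the difference on both days.
The other 6 genes stayed nearer to the untreated level. NFKBIA read 10.42 untreated, 10.53 on day 1 and 10.42 on day 2 of hypoxia. NFKBIE differed by 0.36 and 0.47 on the log2 scale, under the rule on each day. RELA was level on day 1 (-0.01) and higher on day 2 (0.55). The genes called higher were 3 of 9, against a background of 2.94% of all 11050 genes higher and 1.71% lower, and none of the 9 was lower. The median difference, averaged over days, was 0.27 for the 9 genes and -0.02 for all genes.

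TGF-β was compared with the same untreated array, so the TGF-β and hypoxia differences share it. The size of the differences, and which genes reached the rule, depended on the scale. Direction changed only for RELB and, on day 2, for NFKBIE (-0.17 as deposited and 0.46 after quantile normalization). As deposited, BCL3, NFKBIA and ICAM1 were lower on both days and none was higher, at a background of 32.3% of genes lower and 0.452% higher. After quantile normalization TNFAIP3 and NFKB2 were higher and none was lower, at a background of 2.5% higher and 3.26% lower.
TNFAIP3 read 8.27 on day 1 and 8.06 on day 2 of TGF-β as deposited, and 8.56 and 8.35 after quantile normalization against 7.45 untreated. Both TGF-β arrays lay above the untreated array on each scale, by 0.70 and 0.49 as deposited and by 1.11 and 0.90 after normalization. NFKB2 read 6.54 and 6.45 as deposited, and 7.04 and 6.98 after normalization against 6.13 untreated, where its differences were 0.91 and 0.85. NFKBIA, the main inhibitor of RELA dimers, read 9.61 and 9.58 as deposited against 10.42 untreated. It was lower on both scales, by -0.81 and -0.84 as deposited and -0.58 and -0.70 after normalization, where day 1 just misses the rule.
BCL3 read 5.93 and 5.67 as deposited against 6.85 untreated, its lowest levels on any array. Its differences of -0.92 and -1.18 shrank to -0.22 and -0.41 after normalization. ICAM1 differed by -0.66 on each day as deposited and by -0.17 and -0.15 after normalization. RELB showed the reverse, with -0.02 and -0.09 as deposited and 0.59 and 0.54 after normalization. The median of the 9 genes was -0.06 against -0.46 for all genes as deposited, and 0.39 against 0.01 after normalization.

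In the Snai1ER line, 4-OHT was compared with the untreated Snai1ER array of day 4. TNFAIP3 was lower on both days and was the only one of the 9 genes to reach the rule, at a background of 1.19% of genes lower and 2.3% higher. It read 8.70 untreated, 7.74 on day 2 and 6.52 on day 4 of 4-OHT, the last being its lowest level on any array. The differences were -0.96 and -2.18, or 1.95-fold and 4.54-fold lower. The untreated Snai1ER array enters both differences, and its TNFAIP3 level was above that of the untreated parental array (7.57).
NFKB1 read 8.80 untreated, 8.66 on day 2 and 7.85 on day 4, differences of -0.13 and -0.95, of which the later alone reached 1.5-fold. NFKB2 went below the untreated array on day 2 (-0.76) and above it on day 4 (0.29), from 7.18 to 6.42 and 7.48. The inhibitor NFKBIE was lower by -0.56 and -0.49 and ICAM1 by -0.53 and -0.33, each short of the rule. RELA (-0.02 and -0.11) and RELB (-0.21 and -0.03) stayed near the untreated array. The median difference was -0.32 for the 9 genes and 0.00 for all genes.

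**Figure D2:**
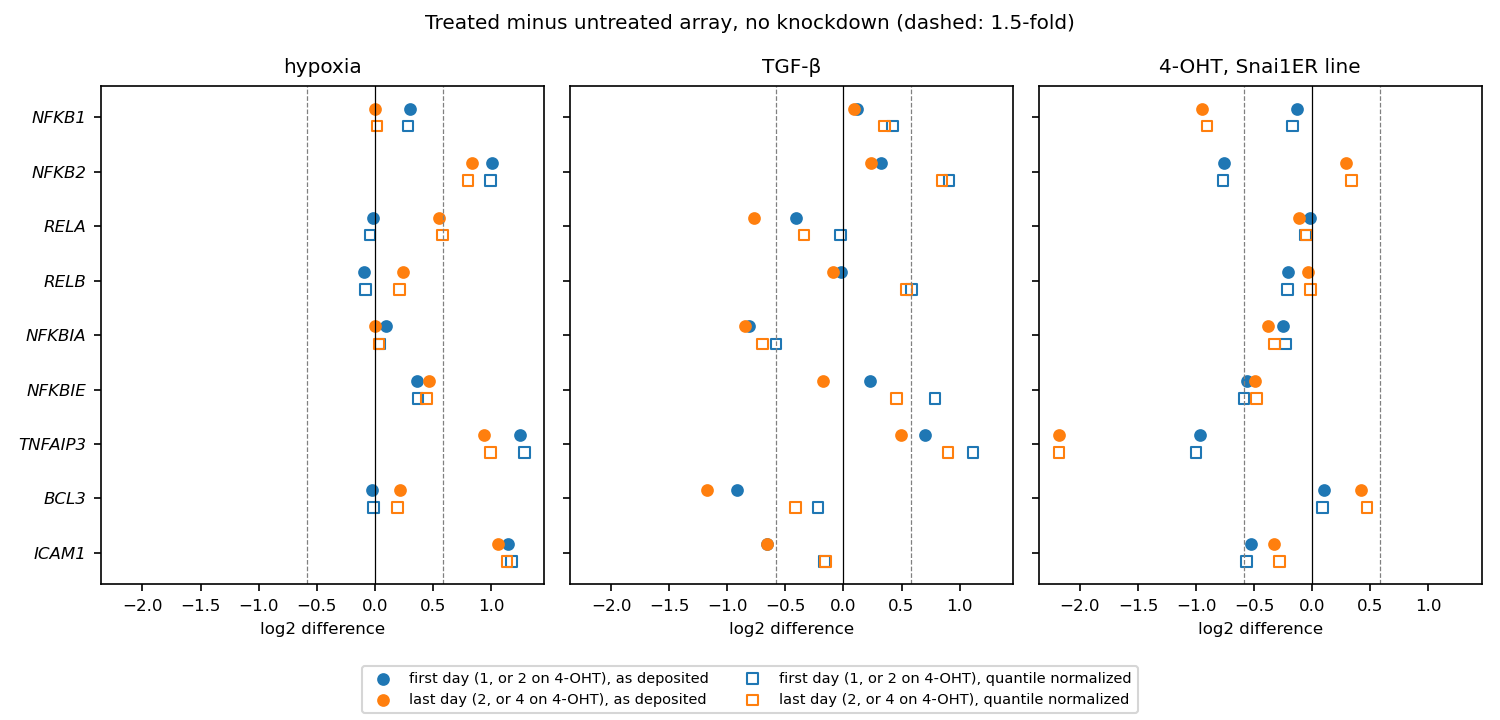
Log2 difference of each treated array without knockdown from its untreated array (horizontal axes) for the 9 genes, as deposited (filled) and after quantile normalization (open), on the earlier day (blue) and the later day (orange), with dashed lines at 1.5-fold. TNFAIP3 lay above 0 on hypoxia and TGF-β and below 0 on 4-OHT (-0.96 and -2.18).

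The untreated arrays of the lines were set side by side because each is the only reference of its line. TNFAIP3 (8.70 against 7.57), NFKB2 (7.18 against 6.22) and NFKBIE (7.25 against 6.59) were higher in Snai1ER cells, 2.20-fold, 1.96-fold and 1.57-fold. These were 3 of 9 genes, and 4.74% of all genes were higher and 8.11% lower by the 1.5-fold rule. The other 6 genes were within 0.22 of each other, ICAM1 being the farthest apart (0.22). The lines were measured on different days, day 4 and day 2, and line and day cannot be told apart.

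ANGPTL4 knockdown was compared with no knockdown within each treatment and day, to ask whether the level of these genes moved with it. In hypoxia ICAM1 was lower with knockdown on both days, and was the only one of the 9 genes called, at a background of 4.02% of genes lower and 0.434% higher. ICAM1 read 9.12 without and 7.31 with knockdown on day 1, and 9.03 without and 7.97 with it on day 2. With knockdown it thus stood at or below the untreated level of 7.97, and the differences were 3.51-fold and 2.09-fold. The hypoxia arrays without knockdown enter these differences and those from untreated cells, so the rise and the fall of ICAM1 are not separate observations. The day 2 difference does not use the array that stands apart, but its value with knockdown repeats the untreated value to every digit.
The other genes differed between the days. TNFAIP3 was lower with knockdown on day 1 (8.82 to 7.05) and higher on day 2 (8.51 to 9.38), differences of -1.76 and 0.87. NFKBIA went from 10.53 to 9.12 on day 1 and from 10.42 to 10.80 on day 2, and NFKB1 from 9.10 to 7.48 and from 8.80 to 8.76. On day 1 alone 6 of the 9 genes were at least 1.5-fold lower, and on day 2 alone 1 was, ICAM1, at a background of 26% of all genes lower on day 1 and 9.23% on day 2. The day 1 array is the array that stood apart, and the keratin genes KRT8 (9.48) and KRT18 (10.59) also had their lowest levels there, against medians over the arrays of 11.85 and 11.58. On day 2 KRT8 read 11.22 with and 11.97 without knockdown, and KRT18 read 10.76 and 11.70. By the rule over both days, 3 of 7 epithelial marker genes (KRT8, KRT18 and CLDN7) were lower with knockdown in hypoxia. The part of these in the differences was not tested. The median difference over both days was -0.47 for the 9 genes and -0.08 for all genes.

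With TGF-β, BCL3 was higher with knockdown as deposited, 6.79 against 5.93 on day 1 and 6.80 against 5.67 on day 2. It was the only one of the 9 genes called, at a background of 27.6% of genes higher and 0.751% lower. After quantile normalization BCL3 differed by 0.14 and 0.35 and none of the 9 genes was called, at a background of 1.36% higher and 4.5% lower. TNFAIP3 was lower on day 1 on both scales (-1.03 as deposited and -1.41 after normalization), and on day 2 differed by 0.34 as deposited and -0.03 after normalization. NFKBIA was slightly lower on both days, by -0.25 and -0.15 as deposited and by -0.57 and -0.40 after normalization. The medians were 0.28 for the 9 genes and 0.46 for all genes as deposited, and -0.29 and -0.06 after normalization. Of 7 epithelial marker genes, KRT8 and KRT18 were called lower and CLDN4 higher with knockdown after normalization. As deposited, KRT19 and CLDN4 were higher and none was lower.

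In Snai1ER cells on 4-OHT, TNFAIP3 was higher with knockdown on both days, at a background of 2.38% of genes higher and 6.77% lower. It read 7.74 without and 9.05 with knockdown on day 2, and 6.52 without and 8.53 with it on day 4, differences of 2.48-fold and 4.03-fold. With knockdown TNFAIP3 was near the untreated Snai1ER level of 8.70. The arrays of 4-OHT without knockdown enter this difference and the 4-OHT difference given above, so these are not separate observations.
NFKBIA was lower with knockdown on both days, 10.06 to 9.48 on day 2 and 9.93 to 8.97 on day 4, the latter its lowest level of all 14. The differences of -0.58 and -0.96 just miss the rule on day 2 as deposited, and those after quantile normalization (-0.59 and -1.02) reach it. NFKB1 was higher by 0.33 and 0.97. NFKB2 (1.05 and -0.51), NFKBIE (0.85 and -0.01) and ICAM1 (0.84 and 0.02) were higher on day 2 without being higher on day 4. The median was 0.27 for the 9 genes and -0.03 for all genes.

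**Figure D3:**
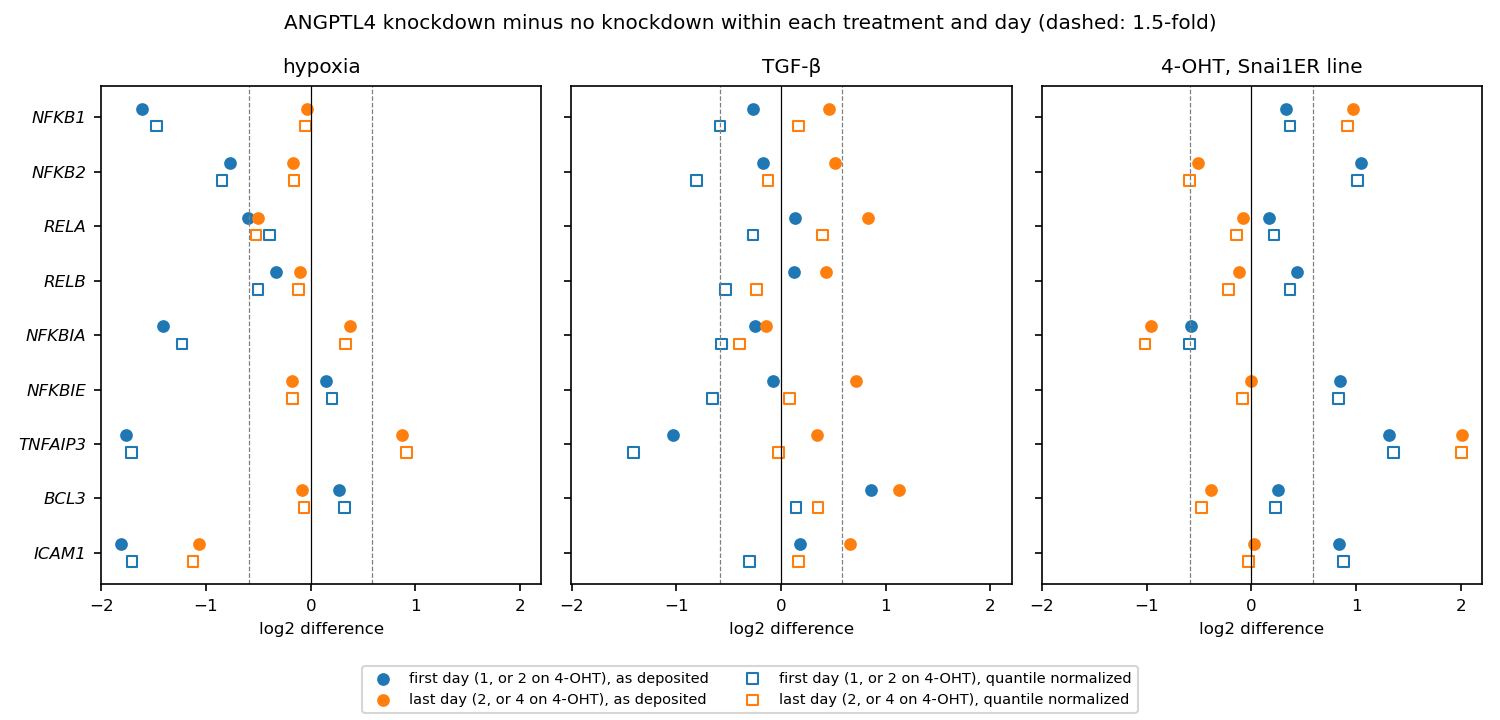
Log2 difference between the arrays with and without ANGPTL4 knockdown (horizontal axes) at each treatment and day for the 9 genes, as deposited (filled) and after quantile normalization (open), on the earlier day (blue) and the later day (orange), with dashed lines at 1.5-fold. ICAM1 was below 0 on both days of hypoxia (-1.81 and -1.07), and TNFAIP3 was above 0 on both days of 4-OHT (1.31 and 2.01).

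Knockdown was tested over the 6 pairs of treated arrays with limma, in which each pair holds the same treatment and day. None of the 9 genes passed an adjusted p of 0.05, and 14 of the 11050 genes did, 0.0452% higher and 0.0814% lower. After quantile normalization none of the 9 passed either, at 0.0905% higher and 0.805% lower. At an unadjusted p under 0.05 there was 1 of the 9 genes on each scale, against 16.7% of all genes as deposited and 19% after quantile normalization. On data simulated for this comparison over 11050 genes, the fit recovered 4.48% of genes changed 1.5-fold, 49.3% of those changed 2-fold and 100% of those changed 4-fold.
The gene at the unadjusted threshold was NFKBIA, lower with knockdown in 5 of 6 pairs. Its mean log2 difference was -0.49 (SE 0.23, n = 6 pairs, limma adjusted p = 0.296), and -0.58 (SE 0.19, adjusted p = 0.168) after quantile normalization. Over 23 other settings it lay between -0.85 and -0.31, with adjusted p from 0.0411 to 0.557, the lowest being that of arrays centred on their median, where 10.8% of all genes passed. As deposited, TNFAIP3 differed by 0.29 (SE 0.39, limma adjusted p = 0.706) and was higher in 4 of 6 pairs. Of these, TGF-β day 2 (0.34) read -0.03 after quantile normalization. ICAM1 differed by -0.20 (SE 0.30, limma adjusted p = 0.753) and was lower in 2 of 6 pairs, those of hypoxia. After normalization it was also lower in the TGF-β day 1 (-0.30) and 4-OHT day 4 (-0.03) pairs. BCL3 differed by 0.34 (limma adjusted p = 0.422) as deposited. Its TGF-β pairs stood at 0.86 and 1.13, against 0.14 and 0.35 after normalization.
The difference of the knockdown effect between the lines was also fitted. For TNFAIP3 the mean knockdown difference was 1.66 over the 2 Snai1ER pairs and -0.39 over the 4 parental pairs. The difference between these was 2.06 (SE 0.62, limma adjusted p = 0.387), so it did not pass over all genes. As deposited, none of the 9 genes passed, at a background of 0% of genes higher and 0.0452% lower after adjustment. TNFAIP3 was the only one at an unadjusted limma p under 0.05, where 8.71% of all genes were. After quantile normalization none of the 9 passed and 2 were at the unadjusted threshold, where 10.7% of all genes were. NFKB1 differed between the lines by 1.02 (limma adjusted p = 0.607) and ICAM1 by 0.94 (limma adjusted p = 0.656). The reagent of the knockdown, the treatment and the line differ together here and cannot be told apart.

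Other genes of the pathway were described by lists of its subunits and inhibitors, kinases and adaptors, receptors and ligands, negative regulators and target genes, which hold 53 genes above the filter. The lists were chosen with earlier results of these data known, so their counts are descriptions beside the background and no test. The filter kept 17 of 29 measured targets and 7 of 18 measured receptors and ligands. In hypoxia 13 of the 53 were higher and none lower, where 2.94% and 1.71% of all genes were. Of these lists, the targets had 7 of 17 genes higher, with a median difference of 0.59 against -0.02 for all genes. The 4 largest were CXCL8, a neutrophil chemokine (3.30 on day 1 and 2.77 on day 2), LAMB3, a laminin chain (1.54 and 1.89), SOD2, the mitochondrial superoxide dismutase (1.25 and 1.35), and TNFRSF9, a TNF receptor family member (1.17 and 1.31). NFKBIZ, a nuclear IκB, was 1 of 3 other subunits and inhibitors and was higher (1.38 and 1.29). Of 7 other negative regulators, the deubiquitinase CYLD (1.35 and 1.30) and the TNFAIP3 partner TNIP1 (0.95 and 1.43) were higher. Of 7 receptors and ligands, TNFSF15 (2.02 and 2.74) and IL1A (2.26 and 1.84) were higher, and of 19 kinases and adaptors only BCL10 was (0.74 and 0.60).
With TGF-β after quantile normalization, NFKBIZ (0.82 and 0.69) and the dendritic cell surface gene CD83 (0.80 and 0.60) were higher and LCN2, a secreted iron-scavenging protein, was lower (-1.34 and -1.13). These were the 3 of 53 genes called on that scale, where 2.5% of all genes were higher and 3.26% lower. As deposited, 14 of the 53 were lower and none higher, at 32.3% and 0.452% of all genes, and NFKBIZ (0.10 and -0.09) and CD83 (0.36 and 0.14) were not called while LCN2 was (-1.94 and -1.71). With 4-OHT, the targets TNFRSF9 (-1.70 and -1.47) and CD83 (-1.12 and -1.24) were lower beside TNFAIP3. TNFRSF9 and CD83 were 2 of 53 genes where 1.19% of all genes were lower, and none was higher. All 3 genes were also called higher on the untreated Snai1ER array than on the untreated parental array (TNFRSF9 at 7.29 against 5.96). The untreated Snai1ER array enters the 4-OHT differences of both days.
With knockdown in hypoxia, 6 of the 53 genes were lower and none higher, where 4.02% and 0.434% of all genes were. These were 4 of 17 targets, CXCL8 (-3.10 and -0.80), SOD2 (-1.36 and -2.06), LAMB3 (-1.84 and -1.27) and TNFRSF9 (-1.53 and -0.69). The adaptor MYD88 (-1.23 and -1.07) and the ligand TNFSF15 (-2.38 and -1.86) were the others. The hypoxia arrays without knockdown enter these differences and those from untreated cells. With knockdown on 4-OHT, CCL2 (-3.84 and -0.96), IER3 (-0.77 and -1.67), IRF1 (-0.75 and -0.68) and IL1R1 (-0.86 and -0.63) were lower and TNFRSF9 (0.94 and 0.82) was higher, 4 and 1 of 53 genes where 6.77% and 2.38% of all genes were. With knockdown on TGF-β, 13 of the 53 genes were higher and none lower as deposited, where 27.6% and 0.751% of all genes were, and none was called after quantile normalization. Over the 6 pairs, limma called no gene of the 5 lists as deposited or after quantile normalization. Centring the arrays instead gave calls for 1 kinase or adaptor, 1 receptor or ligand and 4 of 17 targets, all lower, where 10.8% of all genes were called. IER3, an early response gene, was lower in 6 of 6 pairs, by -0.74 (limma adjusted p = 0.192). In the other direction, CARD10 of the kinases and adaptors was higher in 6 of 6 pairs as deposited, by 0.48 (limma adjusted p = 0.273).

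**Figure D4:**
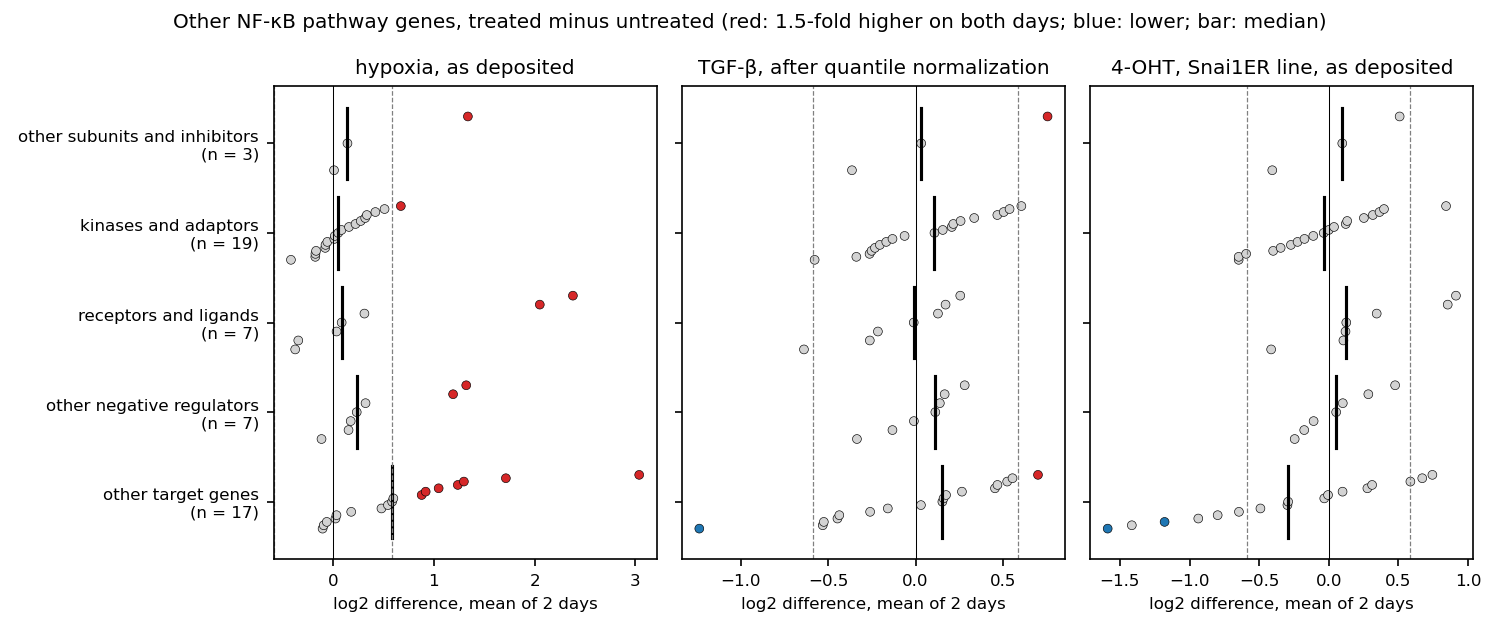
Difference from untreated cells on the log2 scale, as the mean of both days (horizontal axes), for the genes above the filter in 5 other lists of the NF-κB pathway, 1 point per gene, with the list median as a bar and dashed lines at 1.5-fold. Red points were at least 1.5-fold higher and blue points lower on both days, and in hypoxia the 7 called target genes lie to the right with a list median of 0.59.

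Across the 14 arrays after quantile normalization, the 36 pairs among the 9 genes had correlations from -0.68 to 0.73, with a median of 0.32, and 32 were above 0. Without the hypoxia day 1 array with knockdown, 25 were above 0 and the median was 0.28. RELA and ICAM1 had the highest r (0.73, and 0.68 over 13 arrays, where NFKB1 and TNFAIP3 had the highest at 0.69), and NFKB1 and BCL3 the lowest (-0.68). As deposited, 33 pairs were above 0, the median was 0.45, and RELA and ICAM1 had an r of 0.80 and NFKB1 and BCL3 of -0.35. These values are descriptions over arrays that share treatments and untreated cells, with no test. The share of pairs above 0 among all genes is not given, so these counts have no background.
By the same measure, the genes whose pattern was most like each member were taken from all 11050 genes. For NFKBIA these were IRF1 (r = 0.929) and TPRG1L (0.881), and IRF1 kept its place at 0.924 over 13 arrays. For TNFAIP3 they were HERC3 (0.924) and PRKCE (0.874), with HERC3 at 0.911 over 13 arrays. For ICAM1 they were ITGB4 (0.899) and SFXN3 (0.893), and for BCL3 MCF2L (0.947) and TAF1C (0.928). For NFKB1 they were AGO2 (0.925) and ARHGEF28 (0.903), and for NFKB2 ZNF653 (0.842) and SERPINB8 (0.829). RELA was nearest to RNPEPL1 (0.882) and RUSC2 (0.847), RELB to HACL1 (0.910) and BICD2 (0.898), and NFKBIE to KAT5 (0.769) and ZNF335 (0.749). Without the array that stands apart, neither gene named here for RELB, NFKB1 or NFKBIE was among the 2 nearest.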

How the data were processed

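The 14 arrays, 1 per condition, were hybridised with RNA amplified by the NuGEN system. The authors deposited log2 expression values made with RMA in Partek, per the submitters' processing notes, which give no versions, and these were used without further transformation. RMA scales arrays to each other, yet the TGF-β arrays without knockdown have lower medians in the deposited table. Quantile normalization and centring each array on its median were therefore run as alternatives. Scanner files were not used here, and the depth of an array has no equivalent, so precision is limited by how many arrays there are.

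Of 33297 probe sets, 19460 carried 1 gene symbol and were named, 1754 carried several and 12083 were not listed. Probe sets of a gene were averaged (18417 genes), and genes were kept at or above the 40th percentile of mean level, 5.90. Samples were grouped by their labels. Differences from untreated cells and between knockdown arms were called by size. Knockdown was fitted with limma 3.58.1 in R 4.3.3 over 12 arrays, with treatment and day as a block of 6 pairs that comes from the design (5 residual degrees of freedom), with Benjamini-Hochberg adjustment over 11050 genes and a threshold of 0.05. The fit was tested on simulated data. No spread between separate cultures of a condition can be had. The named genes are all listed members, up to 4 called genes of each pathway list per comparison with the largest differences, and the 2 genes with the highest correlation with each member. The members and lists were chosen with earlier results of these data known. The correlations on 13 arrays or as deposited, and quantile normalization without the TGF-β pairs, were chosen after seeing the data.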

Additional observations from a re-analysis of the deposited data

How the results depend on the processing

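Counts of the 9 genes called were small, so single genes move them. For the 2-fold rule, for centring and for most single days the share of all genes called is not given here. Those counts therefore have no background and are not read as results about the 9 genes. After quantile normalization 2.5% of all genes were higher and 3.26% lower with TGF-β, and 1.36% were higher with knockdown on TGF-β. In hypoxia the 2-fold rule left 1 higher (3 by the 1.5-fold rule), and between the untreated lines it also left 1 (3). With TGF-β, centring arrays on their median called 5 higher and 0 lower and quantile normalization 2 and 0, the 2-fold rule called 0 lower and day 1 alone 1 higher, against 0 higher and 3 lower as deposited. Centring turned the mean TGF-β difference of RELB to 0.76 and of ICAM1 to 0.15. With 4-OHT, 0 were lower by the 2-fold rule and 2 on either day alone (1). For knockdown in hypoxia, day 1 alone called 6 lower (1), where 26% of all genes were lower. Day 2 alone called 1 higher (0), TNFAIP3 at 0.87, the reverse of its mean. For knockdown with TGF-β, quantile normalization, centring and the 2-fold rule each called 0 higher (1) and day 2 alone 4, while centring and day 1 alone each called 1 lower (0). For knockdown with 4-OHT, quantile normalization, centring and day 4 alone each called 1 lower (0), and day 2 alone called 4 and day 4 alone 2 higher (1).

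Over the 6 pairs, limma called 0 of the 9 genes at an adjusted p of 0.05, and centring called 1, NFKBIA, at an adjusted p of 0.0411, beside 1191 of all genes (10.8%). For the difference between lines, array weights called 1, TNFAIP3, at 0.0183, beside 1268 of all genes (11.5%), where the range over its 14 settings reached 1.00. The fit without the pair block called 0 of the 9 genes in either comparison, and 4 genes of all in place of 14. Leaving out each pair in turn called 5 to 41 genes of all, the highest without the hypoxia day 1 pair. The cause of these shifts was not tested. ANGPTL4 was too dim to check the knockdown, and 1 array per condition gives no error for any single condition.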
